A study of Mus musculus with 12 samples.

Results

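The 8 genes described here encode proteins that colonic goblet cells secrete into mucus or need in order to make it: Muc2, Zg16, Fcgbp, Clca1, Tff3, Agr2, Retnlb and Spink4. They were taken by symbol and make up 8 of the 35241 gene symbols of the table, and 35 of its 113193 transcripts. RNA came from the full thickness of the distal colon, so muscle and other layers of the wall were included beside the epithelium. All 12 mice carried loxP-flanked Spry2 on both alleles. In the 6 Spry2IEKO mice Vil1::Cre, driven by the villin promoter, deletes Sprouty2 from the intestinal epithelium, and the 6 Spry2FF littermates had no Cre. Litters A and B each held 3 mice of each genotype. The litters also have different prefixes in the sample labels, so litter cannot be told apart from what the prefix marks. Males numbered 3 of the Spry2FF mice but 1 of the Spry2IEKO mice, the rest being female. The labels give an age of 6 weeks in one field and 8 weeks in another. Mice are named by the numbers in their labels.

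Goblet cells store mucin in granules and release it to form the gel that keeps bacteria off the colonic surface. MUC2 is the mucin that builds this gel, and FCGBP, CLCA1 and ZG16 are secreted with it and are found in it. TFF3 is a trefoil peptide of surface repair, and AGR2 is a protein disulfide isomerase of the endoplasmic reticulum needed for mucin production. RETNLB (RELM-beta) is a goblet cell cytokine-like protein with antibacterial activity that type 2 cytokines are known to induce, and SPINK4 is a small secreted protein of the Kazal inhibitor family. In whole tissue, more goblet cells and more RNA per goblet cell cannot be told apart.

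On GRCm38 (GENCODE M21), Muc2 (ENSMUSG00000025515) lies on chromosome 7 from 141690340 to 141754693 on the plus strand. Fcgbp (ENSMUSG00000047730) and Zg16 (ENSMUSG00000049350) are on the same chromosome, from 28071236 to 28120862 on the plus strand and from 127050156 to 127087328 on the minus strand. Clca1 (ENSMUSG00000028255) spans 145003817 to 145032776 of chromosome 3 on the minus strand, and Spink4 (ENSMUSG00000028415) spans 40920052 to 40931395 of chromosome 4 on the plus strand. Agr2 (ENSMUSG00000020581) spans 35992907 to 36004087 of chromosome 12, and Retnlb (ENSMUSG00000022650) 48816856 to 48818892 of chromosome 16, both on the plus strand. Tff3 (ENSMUSG00000024029) spans 31125306 to 31129646 of chromosome 17 on the minus strand. The 8 genes thus lie on 6 chromosomes.

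Because the 8 genes varied together across mice, as given further on, the promoters of the 3 genes with an entry among the RefSeq promoters used here (Fcgbp, Muc2 and Agr2) are shown as the 250 bases before the RefSeq start on GRCm38.p6. They are chr7:28070986-28071235 for Fcgbp, chr7:141690090-141690339 for Muc2 and chr12:35992675-35992924 for Agr2, all on the plus strand. Capitals mark exact matches, on either strand, to any of 5 short motifs that were searched for. These were a TATA box (TATAAA), an E-box of the kind that basic helix-loop-helix factors bind (CAGCTG), the motif of the intestinal CDX factors (CATAAA), that of forkhead factors such as the FOXA proteins (GTAAACA), and the paired half-sites of STAT factors (TTCNNNNGAA).
Fcgbp: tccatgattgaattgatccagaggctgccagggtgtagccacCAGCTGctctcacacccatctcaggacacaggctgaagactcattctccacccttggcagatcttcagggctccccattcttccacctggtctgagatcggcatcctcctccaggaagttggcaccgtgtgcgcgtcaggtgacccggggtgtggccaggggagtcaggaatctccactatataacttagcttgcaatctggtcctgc
Muc2: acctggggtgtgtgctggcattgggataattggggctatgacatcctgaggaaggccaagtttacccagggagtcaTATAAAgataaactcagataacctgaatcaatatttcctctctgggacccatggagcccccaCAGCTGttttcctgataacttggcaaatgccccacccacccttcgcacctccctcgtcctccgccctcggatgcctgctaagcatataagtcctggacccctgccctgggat
Agr2: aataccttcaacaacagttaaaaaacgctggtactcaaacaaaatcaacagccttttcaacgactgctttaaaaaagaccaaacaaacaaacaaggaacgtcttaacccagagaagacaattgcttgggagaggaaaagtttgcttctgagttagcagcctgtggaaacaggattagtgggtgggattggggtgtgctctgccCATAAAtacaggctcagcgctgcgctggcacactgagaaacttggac
The E-box letters were found in the promoters of Fcgbp, at -208 to -203 from the start, and of Muc2, at -112 to -107, and 13% of the 32851 promoters in the table hold it. The TATA box letters were found at -174 to -169 in Muc2, against 12.4% of all promoters, and the CDX letters at -47 to -42 in Agr2, against 10.8%. The letters of the forkhead motif, in 3.17% of all promoters, and of the STAT motif, in 5.85%, were in none of the 3 windows. No motif as spelled here was shared by all 3 promoters, and variants of the letters were not searched for.

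Each value is the deposited signal of a transcript, TPM (a share of all transcripts, already divided by transcript length) that the authors scaled between mice, summed over the transcripts of a gene and called normalized TPM here. The totals ran from 918816 to 1069158 in Spry2FF and from 972094 to 1065858 in Spry2IEKO mice. These are not read counts, so the depth behind each value is unknown. Spry2 itself, the check of the labels, ran from 18.5 to 22.5 normalized TPM in Spry2IEKO and from 22.8 to 32.3 in Spry2FF mice, so that the groups did not overlap. For the comparison of genotypes limma was applied to log2(normalized TPM + 0.5) of the 15880 genes whose mean reached 0.5, with Benjamini-Hochberg adjustment over all of them. All 8 mucus protein genes passed this filter. The log2 difference of Spry2, Spry2IEKO minus Spry2FF, was -0.45 ± 0.0877 (SE), or 0.73-fold. Its adjusted limma p was 0.16, so that it did not pass 0.05. The share of all genes that were lower without overlap was not computed.

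Except for Retnlb, these were among the most abundant transcripts of the tissue. By mean normalized TPM over the 12 mice, Zg16 came first at 4305, which is rank 19 of all genes, followed by Tff3 at 1978, rank 31, and Agr2 at 1792, rank 41. Clca1 at 1354, Spink4 at 1238, Fcgbp at 1085 and Muc2 at 1055 held ranks 73, 87, 110 and 114. The ranges over mice of these last 4 overlapped, and Fcgbp and Muc2 were within their spread of each other. The sums of Fcgbp and Muc2 include transcripts that cover only part of the gene, so their ranks are approximate. Retnlb was far below at 3.07, rank 11908. The sum of the 8 genes was 15391 ± 3271 (SD, n = 6) in Spry2IEKO and 10229 ± 1769 (n = 6) in Spry2FF mice, which is 0.951% to 1.82% of a Spry2IEKO mouse's total and 0.80% to 1.28% of a Spry2FF mouse's.

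The first question was whether these genes differ between colons with and without epithelial Sprouty2. The mean of every one of the 8 was higher in Spry2IEKO mice, by a log2 difference of 0.43 (Tff3) to 2.40 (Retnlb), and the median of the 8 differences was 0.56 where that of all genes tested was 0.01. None passed an adjusted p of 0.05, which 0.0315% of all genes did by limma (5 of 15880). At an unadjusted limma p under 0.05 there were 7 of the 8, beside 6.18% of all genes. An exact permutation test that enumerated every division of the 12 mice gave 7 at an unadjusted p under 0.05, beside 6.01% of all genes in either direction, and 0 after adjustment. Its smallest possible p, 0.00216, had an adjusted p of 0.537 (Muc2), so no gene could pass and the 0 decides nothing. In 6 of the 8 genes at least 5 of 6 Spry2IEKO mice were above all 6 Spry2FF mice, as in 1.19% of all genes.

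Muc2, the gel-forming mucin, ran from 1022 to 1502 normalized TPM (median 1227) in Spry2IEKO mice and from 727 to 1000 (median 857) in Spry2FF mice. It was the only one of the 8 whose groups did not overlap, which held for 0.189% of all genes in this direction. Its log2 difference was 0.53 ± 0.102 (SE, n = 6 per group), or 1.44-fold with a 95% interval of 1.24 to 1.68, with an adjusted limma p of 0.16. The exact permutation test gave an unadjusted p of 0.00216, the smallest that 6 against 6 mice allow.

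The 3 proteins secreted with the mucin had larger spreads. Zg16, a lectin-like protein that binds Gram-positive bacteria, ran from 3263 to 6647 (median 5552) in Spry2IEKO and from 2443 to 4165 (median 3214) in Spry2FF mice. Of the Spry2IEKO mice, 5 were above all Spry2FF mice and mouse 8 lay among them. Its log2 difference was 0.73 ± 0.184 (SE), with an adjusted limma p of 0.446 and an unadjusted exact permutation p of 0.00866. Fcgbp, a large protein with repeated von Willebrand domains, ran from 967 to 1636 (median 1316) against 642 to 1093 (median 917). Here 4 Spry2IEKO mice were above all Spry2FF mice, and the log2 difference was 0.51 ± 0.142 (SE) with an adjusted p of 0.594. Clca1, a metalloprotease that processes mucus, ran from 706 to 2245 (median 1701) against 492 to 1547 (median 1082). Its log2 difference of 0.63 had a 95% interval of -0.02 to 1.29, and it alone of the 8 had an unadjusted p over 0.05 by both tests, 0.0581 by limma and 0.0628 by exact permutation. With litter as a covariate its unadjusted limma p was 0.0244 and its adjusted p 0.544. All 8 genes then had an unadjusted p under 0.05, beside 1302 of 15880 genes in either direction, and none passed the adjusted threshold.

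Tff3, the trefoil peptide, had the smallest difference on the log2 scale. It ran from 1425 to 2728 (median 2404) in Spry2IEKO and from 1220 to 2126 (median 1670) in Spry2FF mice, with a log2 difference of 0.43 ± 0.175 (SE) and an adjusted p of 0.753. Agr2, the endoplasmic reticulum isomerase, was 1331 to 2476 (median 2115) against 1349 to 1731 (median 1490). All Spry2IEKO mice but mouse 8 were above all Spry2FF mice, and mouse 8 was below them all. The log2 difference of Agr2 was 0.44 ± 0.133 (SE), with an adjusted p of 0.656.

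Spink4 and Retnlb had the same split, 5 Spry2IEKO mice above all Spry2FF mice and mouse 8 among them. Spink4 ran from 875 to 1992 (median 1510) in Spry2IEKO and, in a narrower range, from 871 to 1082 (median 990) in Spry2FF mice, with a log2 difference of 0.58 ± 0.158 (SE) and an adjusted p of 0.565. Retnlb ran from 0.219 to 15.3 (median 3.84) in Spry2IEKO mice and from 0 to 0.907 (median 0.226) in Spry2FF mice. It is the gene of the 8 with the largest difference, 2.40 ± 0.616 (SE) on the log2 scale with an adjusted p of 0.478, and also the one with the least signal. The ratio of its group means was 15.7, the SD was 96.7% of the mean in Spry2IEKO mice, and the log2 difference became 3.43 with a pseudocount of 0.1 and 1.91 with a pseudocount of 1.

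**Figure D1:**
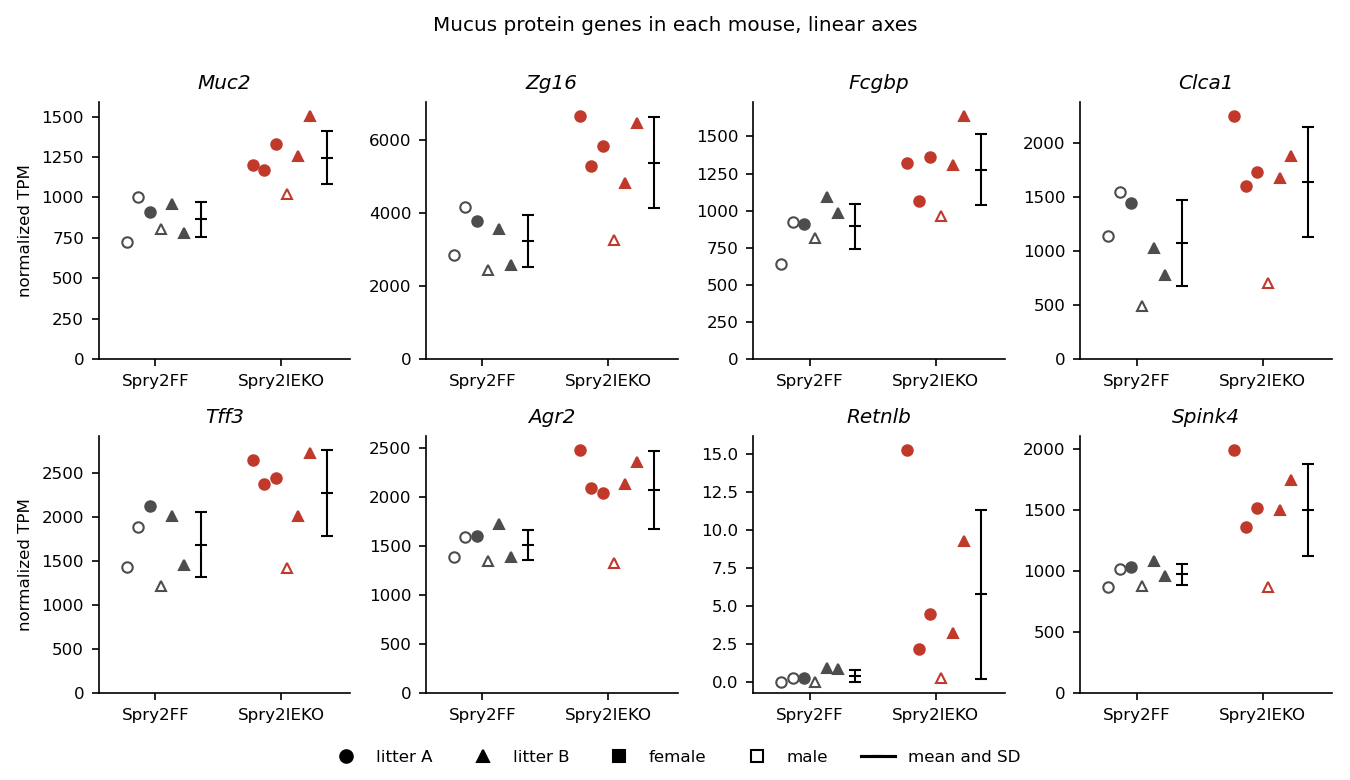
Normalized TPM of the 8 genes in each of the 12 mice (vertical axes, linear and separate for each gene) by genotype. Circles are litter A, triangles litter B, open symbols males, and bars the mean ± SD of 6 mice. The Muc2 values of Spry2IEKO mice, 1022 to 1502, sit above all Spry2FF values, 727 to 1000, and the open red triangle, mouse 8, is the lowest Spry2IEKO mouse in every panel.

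The order of the mice was much the same from gene to gene. Mouse 8, from litter B and the only Spry2IEKO male, had the lowest value of its genotype for all 8 genes, and was below the Spry2FF median for 5 of them. Mouse 4 was the highest Spry2IEKO mouse for 5 genes and mouse 12 for the other 3. Among Spry2FF mice the lowest value of each gene was that of mouse 2 or mouse 9, both listed at 0 for Retnlb. The summed level of 9 smooth muscle markers was 8278 in mouse 8 and 3389 to 7251 in the other mice, and its summed level of 12 pan-epithelial markers, 7624, was inside the range of the other Spry2IEKO mice, 6286 to 7751. The part of tissue composition in the low values of mouse 8 was not tested.

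The calls turned on this mouse. Without it, 3 of the 8 genes passed the adjusted threshold of limma, beside 0.0882% of all genes (14 of 15878), and all 8 were higher at an unadjusted p under 0.05, beside 4.56% of all genes. Those 3 were Spink4, with a log2 difference of 0.73 and an adjusted p of 0.024, Agr2, with 0.56 and 0.0447, and Retnlb, with 2.91 and 0.0499. Muc2 then had an adjusted p of 0.0547. The same comparison among females alone, 5 Spry2IEKO against 3 Spry2FF mice, had all 8 genes higher at an unadjusted p under 0.05, beside 2.29% of all genes, and none past the adjusted threshold. With sex as a covariate the median difference of the 8 was 0.44 and 6 of them had an unadjusted p under 0.05, beside 4.42% of all genes. The other two were Clca1 and Tff3, and the log2 difference of Tff3 was then 0.27 in place of 0.43, with an adjusted limma p of 0.999. Sex and mouse 8 cannot be told apart within Spry2IEKO mice.

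**Figure D2:**
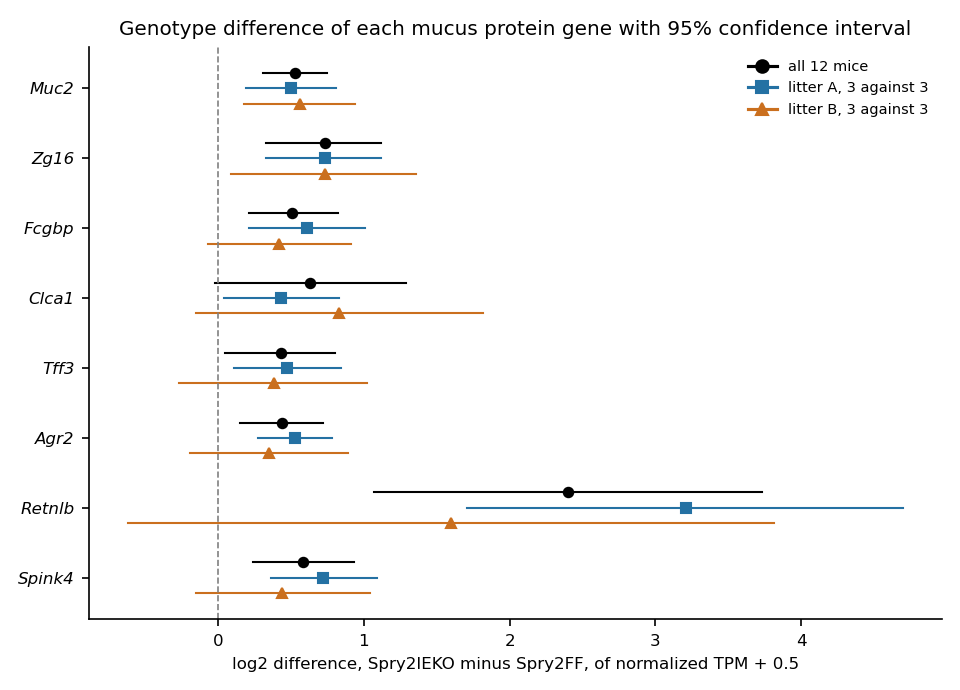
Log2 difference of each gene, Spry2IEKO minus Spry2FF, on the log2(normalized TPM + 0.5) scale (horizontal axis), with the 95% interval of limma for all 12 mice (black), litter A (blue) and litter B (orange). All 24 points lie above 0; the pooled interval of Clca1, -0.02 to 1.29, includes 0.

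Litters gave the same direction with different precision. In litter A, 3 mice against 3, every Spry2IEKO mouse was above every Spry2FF mouse for all 8 genes, and all 8 were higher at an unadjusted p under 0.05, beside 3.41% of all genes. In litter B, which holds mouse 8, this separation held for Muc2 only, and 2 genes, Muc2 and Zg16, had an unadjusted p under 0.05, beside 2.40% of all genes. The share of all genes separated in this way within a litter was not computed, so these counts have no baseline. Because the 8 genes varied together within litters, they are not 8 separate results. The Zg16 difference was 0.73 on the log2 scale in either litter. In litter A its mean was 5917 ± 686 (SD, n = 3) against 3600 ± 669, and in litter B 4842 ± 1594 against 2860 ± 615. Muc2 was alike too, at 0.50 in litter A and 0.56 in litter B. Retnlb differed most, by 3.21 in litter A and 1.60 in litter B.

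The difference between litters of the genotype effect was tested as an interaction. It passed the adjusted threshold for none of the 8 genes, by limma, beside 0.0126% of all genes, and had an unadjusted p under 0.05 for 0 of 8, beside 4.19% of all genes. The intervals were wide. For Retnlb the interaction was -1.61 on the log2 scale with a 95% interval of -4.35 to 1.13, and for Muc2 0.06 with an interval of -0.42 to 0.53.

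Between the litters themselves, with genotype in the model, 4.38% of all genes (696 of 15880) passed the adjusted threshold and none of the 8 did. At an unadjusted p under 0.05 there was 1 of the 8, beside 21.9% of all genes. That gene was Clca1, the mucus metalloprotease. It ran from 1137 to 2245 normalized TPM in litter A and from 492 to 1874 in litter B, a log2 difference of -0.70 ± 0.246 (SE, n = 6 per litter) for B minus A with an adjusted p of 0.122. In females alone its log2 difference was -0.28 with an adjusted p of 0.401. Zg16 had -0.34 ± 0.163 (SE) with an adjusted p of 0.254, and a log2 difference of -0.17 in females alone. Muc2, at -0.01 with a 95% interval of -0.24 to 0.21, and Fcgbp, at 0.13 with an interval of -0.17 to 0.44, had differences closer to 0.

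How far the 8 genes varied together was measured over the 12 mice in their 28 pairs, which share each mouse's library and the amount of epithelium in its piece of colon. Every pair had a positive Pearson's r, from 0.60 to 0.98 with a median of 0.87, and all 28 had a permutation p under 0.05 after adjustment over the 28 pairs. The tightest pairs were Agr2 with Spink4 and Retnlb with Spink4, each at r = 0.98. Spearman's rho was 0.96 and 0.97 for these, and every raw permutation p was 1e-05, the smallest that 100000 permutations can give. With the 2 mice farthest from the median of the first gene left out, r was 0.97 and 0.95.

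The loosest pair was Fcgbp with Clca1, at r = 0.60 with a permutation p of 0.0393 before and after adjustment, and rho = 0.73 with a permutation p of 0.00839. Without the 2 farthest mice r was 0.71. Within litters the same pair was tight, with r = 0.91 in litter A and 0.97 in litter B (n = 6 each). Muc2 with Clca1 followed, at 0.71 over all mice, 0.83 in litter A and 0.89 in litter B. Across all 28 pairs the lowest r was 0.82 within litter A and 0.86 within litter B.

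The genes also varied together inside the groups. With the mean of each genotype in each litter subtracted, r ran from 0.64 (Muc2 with Retnlb) to 0.96, with a median of 0.90. Within Spry2IEKO mice the median was 0.93. Within Spry2FF mice it was 0.74, and the lowest values were 0.07 for Fcgbp with Clca1 and 0.08 for Clca1 with Retnlb.

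**Figure D3:**
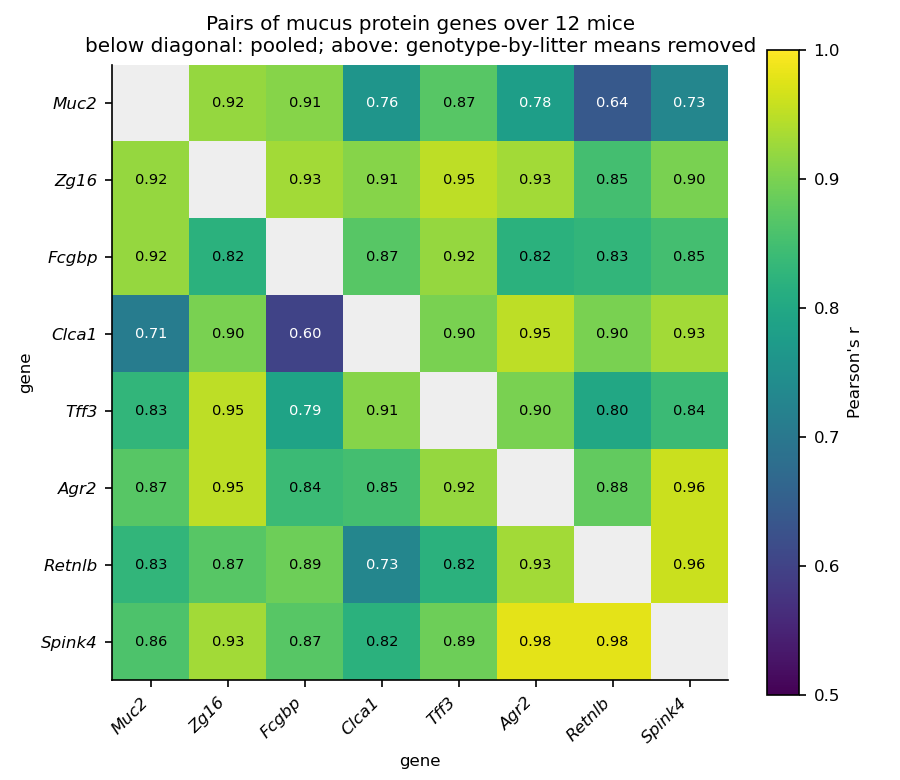
Pearson's r of each pair of the 8 genes over 12 mice on the log2(normalized TPM + 0.5) scale, pooled below the diagonal and with genotype-by-litter means subtracted above it. The colour scale starts at 0.5. The lowest pooled value is 0.60, Fcgbp with Clca1, and its counterpart above the diagonal is 0.87.

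The proportions of the genes were described by their ratio to Muc2 in the same mouse, without a test. The Muc2 sum, and most of the Fcgbp sum, comes from transcripts that cover part of the gene, as given further on. These are therefore not ratios of whole molecules. Fcgbp was 1.02 ± 0.0779 (SD, n = 6) times Muc2 in Spry2IEKO and 1.04 ± 0.139 in Spry2FF mice. Spink4 was 1.20 ± 0.259 and 1.13 ± 0.0762 times Muc2, and Agr2 1.66 ± 0.257 and 1.75 ± 0.111. Zg16 was 4.29 ± 0.778 and 3.71 ± 0.468 times Muc2, with ranges of 3.19 to 5.54 and 3.03 to 4.17. The ranges of both genotypes overlapped for all 7 ratios, Retnlb included. The ratio of Clca1 to Muc2 was 1.30 to 1.87 in litter A and 0.611 to 1.34 in litter B, ranges that met only at their ends.

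Other goblet cell genes gave a mixed picture. Of 13 other mucus and goblet secreted proteins, 8 were abundant enough to test, none passed the adjusted threshold, and the median log2 difference was -0.03. At an unadjusted p under 0.05, 2 were higher, Ang4 and Sval1, beside 6.18% of all genes in either direction. Sval1 was at 0.57 with an adjusted limma p of 0.561. The extremes were Ang4, an antimicrobial ribonuclease, at 1.20 with an adjusted p of 0.798, and Lypd8, which binds flagellated bacteria, at -0.24 with an adjusted p of 0.837. Muc5ac, Muc5b, Muc6, Tff1 and Tff2 were below the filter, so that of the mucins and trefoil factors listed here Muc2 and Tff3 alone had a mean of at least 0.5. Of 20 genes of goblet cell fate and granule machinery none passed. An unadjusted p under 0.05 was found for 8, all of them higher, beside 6.18% of all genes in either direction. On the log2 scale 17 had a higher mean, and the median difference was 0.20. Sytl2, of granule exocytosis, had the largest difference at 0.74 ± 0.166 (SE) with an adjusted p of 0.281, and Klf4, a transcription factor of goblet cell maturation, was at -0.20. Named for their roles, outside the rule on naming, Spdef, the goblet cell transcription factor, was at 0.37 with an adjusted p of 0.753, and Atoh1, the secretory lineage factor, at 0.39 with an adjusted p of 0.693.

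Markers of the epithelium as a whole leaned the other way. Of the 12 pan-epithelial genes 9 had a lower mean on the log2 scale in Spry2IEKO mice, and none passed the adjusted threshold. At an unadjusted p under 0.05 there were 7 of these 9, beside 6.18% of all genes in either direction. The median of the 12 was -0.18. They ran from Krt18 at 0.11 to Krt20 at -0.37. Measured relative to this list, the median of all genes was at 0.15, that of the 8 mucus protein genes at 0.70, which is 0.55 above it, and none of the 8 passed. Paralogs of the 8 went both ways, from Retn, of the same family as Retnlb and also a marker of fat, at 1.04 with an adjusted p of 0.911, to Clca4a, of the same family as Clca1, at -0.94 with an adjusted p of 0.692. The median of the 10 paralogs tested was 0.06.

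**Figure D4:**
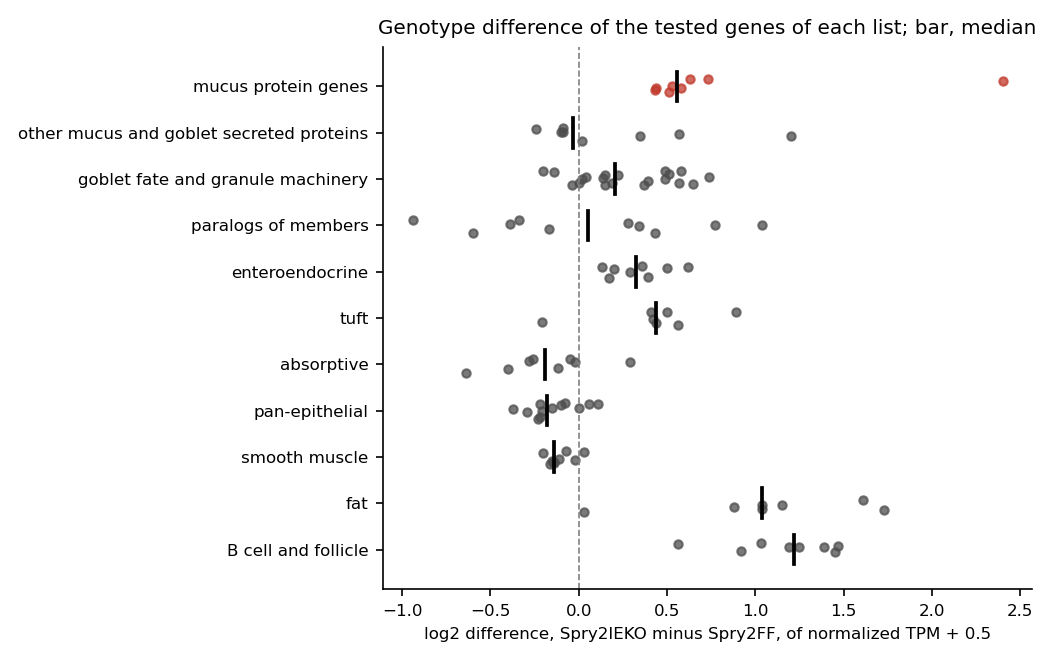
Log2 difference, Spry2IEKO minus Spry2FF, on the log2(normalized TPM + 0.5) scale (horizontal axis) of every tested gene of each list (rows), with the median as a bar. The 8 mucus protein genes (red, median 0.56) all lie above 0, while 9 of 12 pan-epithelial genes (median -0.18) lie below it.

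The 10 other genes whose log2 values most resembled the 8 across mice were ranked by Pearson's r with the mean z-score of the 8 over the 12 mice. They were Spink1 and Sval1 at r = 0.98 and 0.97, Reg4 at 0.97, Tspan13 and Cmtm8 at 0.96, Fxyd3 at 0.95, Rep15 and Alb at 0.94, and Bambi and Aqp4 at 0.93. All genes had a median r of 0.03, and 0.850% of them exceeded 0.8. Spink1, a paralog of Spink4, was 2092 ± 575 (SD, n = 6) in Spry2IEKO and 1205 ± 233 in Spry2FF mice, a log2 difference of 0.77 with an adjusted p of 0.427. Each of the 8 genes had an r of 0.83 (Clca1) to 0.97 (Zg16, Agr2 and Spink4) with the mean z-score of the other 7.

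At the level of transcripts, 27 of the 35 had a mean of at least 0.5 and 5 were listed at 0 in all mice. None of the 27 passed the adjusted threshold of limma for genotype, which 0.00220% of all transcripts did (1 of 45448), and 12 had an unadjusted p under 0.05 beside 4.95% of all. A single transcript carried most of the signal of Zg16 (ENSMUST00000205424.1, 99.8% of the sum), Clca1 (ENSMUST00000029919.6, 99.9%), Spink4 (ENSMUST00000030122.4, 98.2%) and Agr2 (ENSMUST00000020898.11, 97.7%). Tff3 and Retnlb had 1 transcript each. Only Muc2 and Fcgbp were divided among several.

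The Muc2 sum was made of separate pieces of the gene. The table lists Muc2 under 2 Ensembl gene identifiers with 8 transcripts each, and each transcript of one has a partner in the other with values equal within a relative tolerance of 0.001, so the signal was halved between them. The transcripts of the annotated identifier cover different stretches of the gene and none covers all of it. The 3′ transcripts ENSMUST00000187945.6 and ENSMUST00000026590.8, with their partners, held 60.1% to 82.7% of the sum. ENSMUST00000187945.6 was 304 ± 42.8 (SD, n = 6) in Spry2IEKO and 209 ± 32.9 in Spry2FF mice, a log2 difference of 0.54 ± 0.117 (SE) with an adjusted p of 0.632. The log2 difference of Muc2 was 0.57 from the 3′ transcripts alone and 0.46 from the 5′ transcript ENSMUST00000185406.6 summed with its equal partner.

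Fcgbp had the largest litter difference among the 27 tested transcripts. Its full-length transcript ENSMUST00000076648.7, 20 exons and 7928 bases long, was 247 to 359 normalized TPM in litter A and 46.4 to 158 in litter B. With genotype in the model this was a log2 difference of -1.86 ± 0.304 (SE) for B minus A with an adjusted p of 0.0248, in a comparison added after the data were seen. It was the only 1 of the 27 to pass for litter, which 1.31% of all transcripts did. At an unadjusted p under 0.05 there were 8 of the 27, beside 18.3% of all. Whether these differences go with litter or with what the label prefix marks was not tested.

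The short 3′ transcript ENSMUST00000131090.1, 931 bases long and annotated as a processed transcript without a coding sequence, went the other way. It was 230 to 576 in litter A and 440 to 911 in litter B, a log2 difference of 0.54 with an adjusted p of 0.136. The full-length transcript thus made up 24.7% to 38.5% of the Fcgbp sum in litter A and 2.92% to 16.0% in litter B, with no overlap (unadjusted exact permutation p of 0.00216, chosen after the values were seen). Between genotypes the shares overlapped, at 2.92% to 29.1% in Spry2IEKO and 5.72% to 38.5% in Spry2FF mice, with an unadjusted exact permutation p of 0.671.

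The corresponding measure of Muc2, its 5′ transcript as a percentage of its 3′ transcripts, had the same direction with overlap. It was 1.49% to 5.69% (median 3.99%) in litter A and 1.21% to 3.93% (median 1.96%) in litter B (unadjusted exact permutation p of 0.0455). Reads that several overlapping transcripts share are divided among them by estimation, so the sums per gene rest less on this division than the single transcripts do. The Fcgbp log2 difference between genotypes was 0.41 from the full-length transcript alone and 0.58 from the sum without it.

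**Figure D5:**
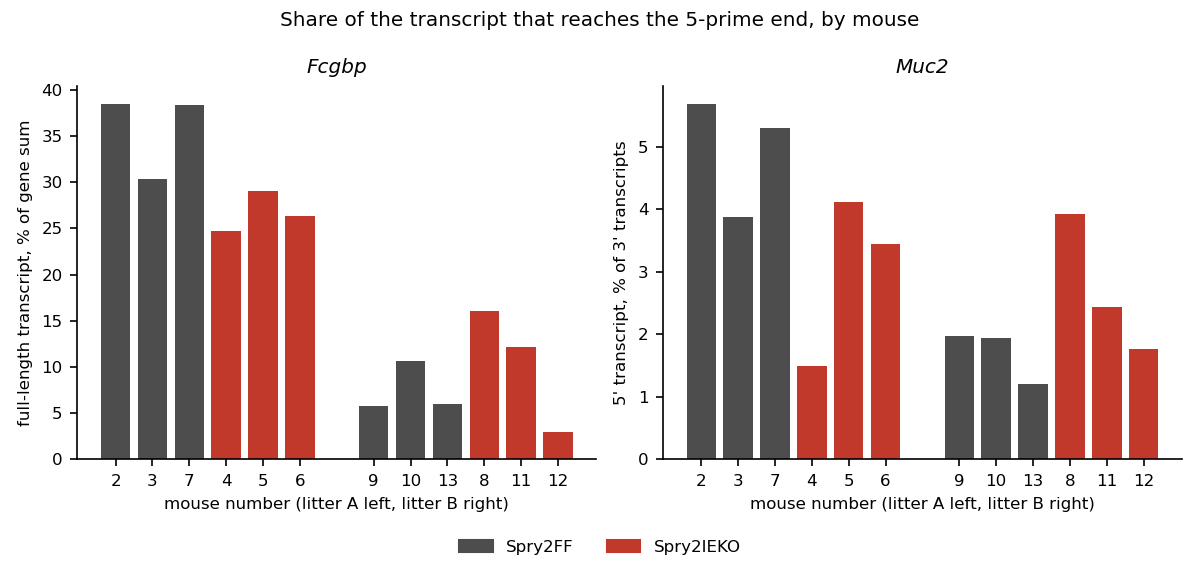
Full-length Fcgbp transcript as a percentage of the Fcgbp sum (left) and 5′ transcript of Muc2 as a percentage of its 3′ transcripts (right) in each mouse, as bars from 0, with litter A on the left of each panel and litter B on the right. The Fcgbp share is 24.7% to 38.5% in litter A and 2.92% to 16.0% in litter B.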

How the data were processed

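Full-thickness distal colon RNA of 12 mice was prepared with a stranded mRNA kit and sequenced. Per the labels, the authors used CASAVA, kallisto and sleuth with mm10. The authors deposited a signal for each transcript, which is TPM that they rescaled between mice, since totals differ from 1 mouse to another. Read depth is not part of it, so no counting interval is given and tests for counts were not run. Columns that hold the authors' own comparisons were not used.

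Of 113974 entries, 781 repeated a transcript and were dropped. Values were summed by gene symbol. Groups, litter and sex came from the labels, with 1 mouse per sample. For genes whose mean reached 0.5, log2(signal + 0.5) was fitted by limma 3.58.1 (R 4.3.3; lmFit, then eBayes with trend, two-sided) without covariate for genotype and with genotype for litter. The plan had assumed TPM, and its tests were kept. Single genes were also compared by two-sided exact permutation of group means. Correlations used log2 values and 100000 permutations. In simulated data, 200 of 15880 genes were changed by 1 on the log2 scale. The genotype comparison recovered 71% of them, and 4.05% of its calls were wrong. Other steps ran in Python 3.11.15 with SciPy 1.17.1, pandas 2.3.3 and NumPy 2.4.6.

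The 8 genes and the gene lists were chosen with earlier results of these data known. Genes named beside the 8 are, in each list, those with the largest difference in each direction, and the 10 closest to the 8 by Pearson's r. 1 gene that this rule names is not reported here. Alternatives were the pseudocount, the filter, litter and sex as covariates or as subsets, 4 other scalings, the exact test for every gene, and leaving out each mouse. Promoters are RefSeq's on GRCm38.p6 and matched 3 of the 8 symbols.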

Additional observations from a re-analysis of the deposited data

How the results depend on the processing

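The direction of the 8 genes between genotypes was the same in all 219 values computed under alternatives, 4 of them added after the data were seen, and 216 kept their side of the threshold. The other 3 (Agr2, Retnlb and Spink4) passed without Spry2IEKO mouse 8, so that leaving out 1 mouse gave 0 to 3 of the 8. The number of all genes that passed for genotype was 5. It was 1 with no filter, with sex or litter and sex as covariates, and in litter B alone, 2 in litter A alone, in females alone and after quantile normalization, 3 with a mean of at least 5, 10 relative to the pan-epithelial list, 0 by exact permutation with adjustment over all genes, and 1 to 14 when 1 mouse was left out, the 14 without mouse 8. The exact test could pass no gene, because its smallest possible p, 0.00216, had an adjusted p of 0.537. A mean of at least 5 leaves Retnlb untested. The median r of the 28 pairs was 0.87, and 0.74 in Spry2FF mice alone. The counts of the 8 genes that passed for litter and for the difference between litters, and of their transcripts that passed for genotype, were 0 under every alternative run.

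The litter difference of Clca1 was -0.28 in females alone in place of -0.70. That of Zg16 was -0.17 in place of -0.34, and that of Tff3 -0.16 in place of -0.27. Litter differences near 0 changed sign. In females alone Muc2 was at 0.07, Agr2 at 0.00, Retnlb at 0.34 and Spink4 at 0.00, and with median-of-ratios scaling Muc2 was at 0.03. When 1 mouse was left out, Muc2 ran from -0.08 to 0.05, Retnlb from -0.48 to 0.35 and Spink4 from -0.22 to 0.01. The cause was not tested. No paired analysis was possible because the genotypes share no mouse numbers. Retnlb, with values near the pseudocount, is the gene whose size is least certain.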

Other observations

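Other secretory cell types varied with the 8 mucus protein genes. Of 8 enteroendocrine genes all had a higher mean in Spry2IEKO mice, 1 at an unadjusted p under 0.05 beside 6.18% of all genes in either direction, none past the adjusted threshold of limma, with a median log2 difference of 0.33. They ran from Tph1, of serotonin synthesis, at 0.62 to Sct, secretin, at 0.13. Of 7 tuft cell genes tested 6 had a higher mean, 2 at an unadjusted p under 0.05 beside the same 6.18%, none passed, and the median was 0.44, from Gnat3, a taste G protein, at 0.89 to Ptgs1 at -0.21. Their median r with the mean z-score of the 8 over the 12 mice was 0.70 for enteroendocrine and 0.79 for tuft genes, beside 0.65 for goblet fate and granule machinery and 0.03 for all genes tested.

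Other cells of the wall gave different values. Absorptive cell genes had a median difference of -0.19, from Slc20a1 at 0.29 to Car1, carbonic anhydrase 1, at -0.64, and 2 of 8 were lower at an unadjusted p under 0.05, again beside 6.18% of all genes. Smooth muscle genes had a median difference of -0.14, from Cnn1 at 0.03 to Myh11 at -0.20, and a median r with the 8 of -0.66, the lowest of the lists. The fat list, from Car3 at 1.73 to Plin4 at 0.03, had a median of 1.04, with a summed level of 692 in mouse 4 and 1064 in mouse 5 against 4.19 to 103 in the other mice. The B cell and follicle list, with its smallest difference at 0.56 for Blk, had a median of 1.22, summed levels of 7.58 to 410 in Spry2IEKO and 3.95 to 172 in Spry2FF mice, and a median r of 0.55. None of the genes of these 4 lists passed the adjusted threshold, and the part of tissue composition in the values of the 8 genes was not tested.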
